A study of Mus musculus with 16 samples.

Results

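The comparison was between 2 libraries from day 8 and 2 libraries from day 2 of the passage of mouse embryonic stem cells out of medium with 2 kinase inhibitors, 4 of the 16 libraries of the series. All 4 came from E14TG2a cells of 1 line carrying the heterozygous Dnmt1 N1580A knock-in, in which 1 of the gene's alleles encodes an enzyme that can use a bulkier cofactor. Day 8 and day 2 cells were kept in serum with LIF and without the inhibitors CHIR99021 and PD0325901 (together called 2i). Both received Ado-6-azide at 1 mM by electroporation, and genomic DNA was taken 3 h later. The 2 libraries of day 4, grown in the same medium, are given beside them, while the sparse day 0 libraries, from cells still in 2i, took no part in the tests. The labels do not say whether replicates were separate cultures, so the p-values below can cover no more than the spread between these libraries. The libraries were also of bulk DNA, so more label per cell and more labelled cells cannot be told apart.

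DNMT1 is the maintenance methyltransferase, which copies CpG methylation onto the new DNA strand after replication and is brought to hemimethylated CpGs by UHRF1. In naive stem cells held in 2i, genome-wide CpG methylation is low, and it is restored after the inhibitors are withdrawn, with the de novo enzymes DNMT3A and DNMT3B at work beside DNMT1. Most CpG islands at promoters remain unmethylated in both states. Here the modified enzyme leaves an azide on the CpGs it acts on within the labelling time, and the tagged CpGs are captured and sequenced. A listed position is thus a CpG where a tag was read, and its read count is the number of reads assigned to it. Neither measures expression or the methylation level.

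A promoter with many listed CpGs on day 8 shows what a listed position is. Sequences are 300 bases, from 250 before to 50 after an annotated start, from RefSeq (GRCm38.p6, the coordinates of mm10), written 5′ to 3′ on the strand of the gene. The promoter of Fkbp6, a meiotic gene of the germline list on chromosome 5 (chr5:135349864-135350163, minus strand), holds 32 CpGs. The day 8 libraries listed 8 and 8 of them and the day 2 libraries 2 and 0. The first line below has in capitals the 14 CpGs listed in either day 8 library, and the second line the 2 listed in either day 2 library.
Fkbp6, day 8: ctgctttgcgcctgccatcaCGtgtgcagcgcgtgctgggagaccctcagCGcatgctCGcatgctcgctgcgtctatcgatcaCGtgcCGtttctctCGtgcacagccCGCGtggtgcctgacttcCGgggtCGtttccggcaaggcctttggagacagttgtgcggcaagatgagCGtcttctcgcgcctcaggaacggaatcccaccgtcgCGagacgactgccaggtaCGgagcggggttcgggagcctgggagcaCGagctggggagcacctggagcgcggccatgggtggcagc
Fkbp6, day 2: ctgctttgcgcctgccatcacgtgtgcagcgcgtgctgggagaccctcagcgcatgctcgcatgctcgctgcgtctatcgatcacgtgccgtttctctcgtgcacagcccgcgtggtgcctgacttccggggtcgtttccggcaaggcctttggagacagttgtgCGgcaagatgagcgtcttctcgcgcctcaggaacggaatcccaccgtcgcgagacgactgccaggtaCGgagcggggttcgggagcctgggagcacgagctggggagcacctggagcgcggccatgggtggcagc
The promoter of Ctnnd1, which encodes the cadherin-binding p120 catenin (chr2:84658928-84659227, minus strand), holds 30 CpGs and overlaps the promoter of Btbd18. The day 8 libraries listed 8 and 8 of them and the day 2 libraries 0 and 1. Capitals mark the 14 CpGs listed in either day 8 library, against 1 in either day 2 library.
Ctnnd1, day 8: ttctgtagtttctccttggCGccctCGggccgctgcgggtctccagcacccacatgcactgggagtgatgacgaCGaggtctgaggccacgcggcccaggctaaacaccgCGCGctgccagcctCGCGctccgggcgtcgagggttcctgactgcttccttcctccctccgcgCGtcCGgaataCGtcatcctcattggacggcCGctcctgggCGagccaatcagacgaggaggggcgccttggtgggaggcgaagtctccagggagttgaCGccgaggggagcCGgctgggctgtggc
Both windows were chosen after their values were seen, as CpG-rich promoters with many listed CpGs in both day 8 libraries, so their difference is a description. These counts are raw, and the day 8 libraries listed 2.19-fold more positions over the autosomes. As a share of all positions, the whole body of Fkbp6 had a log2 change of 0.26 and was not called (edgeR adjusted p = 0.766). The promoter of Tmem267 held more listed CpGs, with its day 8 libraries further apart, at 15 and 6 of 50 CpGs on day 8, against 1 and 5 on day 2. The third sequence is the opposite case. The promoter of Trim71 (chr9:114564320-114564619, minus strand) belongs to a gene whose body was called higher on day 8, yet none of its 19 CpGs, in capitals, was listed in any library of day 2, 4 or 8.
Trim71, every CpG: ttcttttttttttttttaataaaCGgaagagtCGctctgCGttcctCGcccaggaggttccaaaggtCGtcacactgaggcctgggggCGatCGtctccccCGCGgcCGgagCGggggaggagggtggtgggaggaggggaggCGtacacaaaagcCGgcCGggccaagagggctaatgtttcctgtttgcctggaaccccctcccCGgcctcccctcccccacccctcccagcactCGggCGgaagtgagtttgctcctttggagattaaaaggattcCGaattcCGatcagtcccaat

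Across the autosomes the day 8 libraries listed 3011952 and 2556018 positions, and the day 2 libraries 1245488 and 1286026. Both day 8 libraries lay far above both day 2 libraries, at 2.19-fold more positions. Reads differed less, at 12399291 and 10356344 on day 8 and 9889357 and 8787079 on day 2, or 1.22-fold. Each position therefore held fewer reads on day 8, at 4.08 ± 0.0459 against 7.39 ± 0.783 on day 2 (SD, n = 2 each). Positions with a single read made up 19.6% ± 0.122 of those on day 8 and 13.4% ± 0.5 of those on day 2 (SD, n = 2 each). When every library was cut to 8787079 reads, day 8 still had 2.09-fold more positions. The exact two-sided permutation p of each of these differences was 0.333, the smallest that this test can give for 2 against 2 libraries, so it could not pass. The 5 wild-type libraries without the knock-in listed 945 to 9027 autosomal positions, so the smallest of the 4 libraries had 138-fold more than the largest of them. Because depth in positions differed between the days, several results were also computed at equal numbers of positions. Reads were drawn at random until a library reached 1245488 positions. That was done for the gene and window tests of positions, the correlations, the genome classes and the classes of promoters. It was not done for summaries of gene lists, the promoters of lists, single promoters, bins along loci or the 10 kb stretch of the ribosomal RNA repeat.

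The genomic distribution of the tags was close to the same on both days. Over 100 kb windows at equal numbers of positions, Spearman's correlation was 0.954 between the day 8 libraries, 0.954 between the day 2 libraries, and 0.944 to 0.950 between a day 8 and a day 2 library. Of the positions of one library, 9.43% recurred in the other within day 8, 9.87% within day 2 and 9.33% to 9.55% between the days. Windows share CpG density and mappability, so these values are descriptions with no p. Over all positions, 36.2% of those listed on day 2 were listed again on day 8.

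Against that background, single gene bodies were tested by counting the distinct positions listed anywhere between both ends of each annotated gene, with edgeR's quasi-likelihood test and Benjamini-Hochberg adjustment at 0.05. For positions the fitted spread was pooled almost wholly over all genes, so these p-values reflect little of the spread between a gene's own libraries. Of 19753 genes tested, 26 (0.132%) were higher and 14 (0.0709%) were lower on day 8. Of the genes at or above the median abundance, 96.1% changed by no more than 0.5 on the log2 scale, and the median over all genes was 0.00. Levels are given in ppm, the listed positions in a gene or window per 1000000 listed autosomal positions of its library. All changes are relative to that total, so a gene at 0 gained positions as the whole genome did. The days did not overlap in any of the 40 called genes, but the calls were made on these same counts. The share of all genes tested without overlap is not given here, so this is no support for the calls. Overlapping genes share positions, and the 26 higher genes stood for 12 separate loci, with 15 genes in the protocadherin cluster alone, while the 14 lower genes stood for 14. The calls were fragile: DESeq2 called 1 of the 40, Sfi1, and edgeR called 2 genes without day 2 replicate 1, 5 without day 2 replicate 2, 22 without day 8 replicate 2, and 4 at equal numbers of positions (3 of them among the 40). At an unadjusted p under 0.05, DESeq2 had 188 genes and edgeR 1746. Of the 40 called genes, 39 could be tested at equal numbers of positions, and all 39 had the same sign there, as did 40 of 40 by reads. Both come from the same 4 libraries that the genes were called in, so this is a description and no support for the calls.

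**Figure D1:**
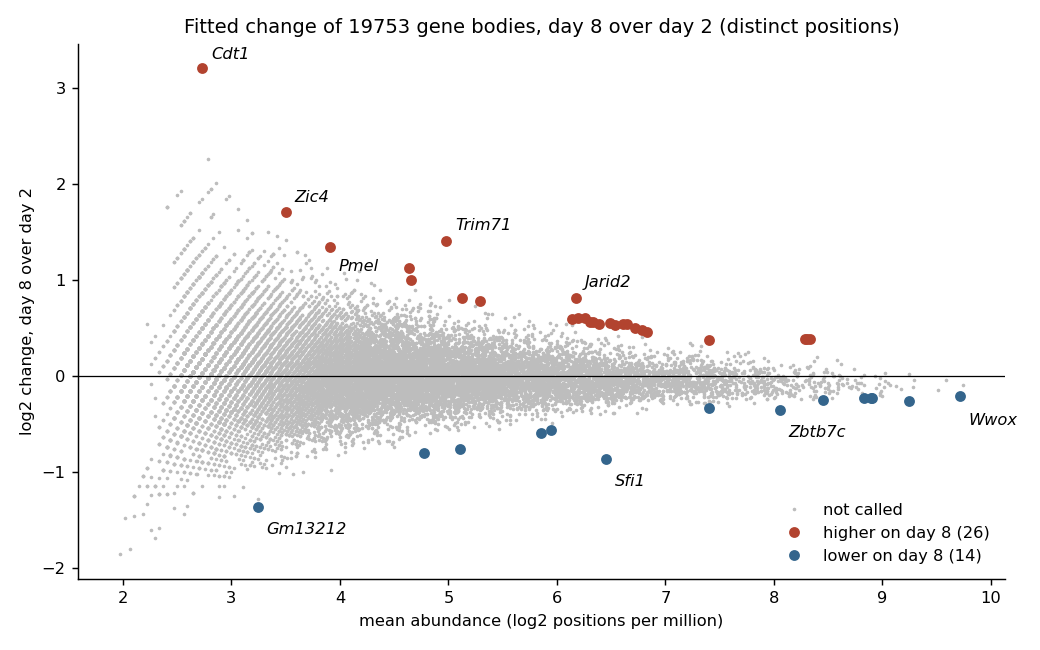
Each point is 1 of 19753 gene bodies, with its mean abundance (log2 of positions per 1000000) on the x axis and its fitted log2 change of day 8 over day 2 on the y axis; red points are the 26 genes called higher and blue points the 14 called lower. Higher calls reach 3.20 (Cdt1), and lower calls reach -1.36 (Gm13212).

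Trim71, an RNA-binding ubiquitin ligase of stem cells that let-7 microRNAs repress, was the clearest higher gene. Its body (chr9:114511268-114564369) held 36.9 and 39.9 ppm on day 8, against 16.9 and 11.7 on day 2. Day 4 lay at 30.1 and 35.6, above both day 2 libraries. The log2 change was 1.40 ± 0.23 (SE; edgeR adjusted p = 1.84e-05). At equal numbers of positions it was 1.44 (edgeR adjusted p = 0.0188). Without day 2 replicate 2 the call was lost, at 1.14 (edgeR adjusted p = 0.189), and DESeq2 gave 1.40 (adjusted p = 0.845). The 5 wild-type libraries held 0 positions there. Along the gene, the day 8 mean was above the day 2 mean in all 11 bins of 5 kb of the body, and in 9 of 12 bins of the flanks. Both day 8 libraries were above both day 2 libraries in 8 bins of the body and 5 of the flanks. The bins divide a gene called in these same libraries, so they are a description.

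Jarid2, an accessory subunit of Polycomb repressive complex 2, was the second. Its body (chr13:44730774-44921643) held 87.3 and 77.9 ppm on day 8, against 40.9 and 52.1 on day 2. Day 4 lay with day 8, at 92.4 and 81.4. The log2 change was 0.80 ± 0.14 (SE; edgeR adjusted p = 7.78e-05), 0.74 at equal numbers of positions (edgeR adjusted p = 0.176), and 0.64 without day 2 replicate 1 (edgeR adjusted p = 0.470). The day 8 mean was above the day 2 mean in 18 of 19 bins of 10 kb inside the gene and in 8 of 13 outside it. Both day 8 libraries were above both day 2 libraries in 13 bins inside and 1 outside. The mean per bin inside was 4.28 ppm on day 8 and 2.43 on day 2, while outside it was 5.65 on day 8 and 5.69 on day 2. Neither of its 2 annotated promoter windows, with 24 and 23 CpGs, had a listed position on day 8, 4 or 2.

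The gamma protocadherins, cell-surface proteins that neurons use to tell themselves from their neighbours, are made from a row of variable first exons spliced to shared last exons, so their annotated bodies overlap. The 12 called bodies and 3 readthrough genes of the cluster are 1 locus on chromosome 18 and not separate results. Pcdhgb4 had 84.0 and 86.9 ppm on day 8, against 52.2 and 58.3 on day 2, a log2 change of 0.60 ± 0.13 (SE; edgeR adjusted p = 0.0125). Its change was 0.56 at equal numbers of positions (edgeR adjusted p = 0.294). The 12 changes lay between 0.45 and 0.60. All 27 tested members of the list of clustered protocadherins had a change above 0, against 9886 of 19753 genes tested, with a median of 0.41 against 0.00. Many of these bodies overlap and share positions, so they are not 27 separate results. The list does not hold every gamma gene, and 8 of the 27 were called. Across the gamma locus the day 8 mean exceeded the day 2 mean in 18 of 23 bins of 10 kb, and in 9 of 13 of its flanks. Both day 8 libraries exceeded both day 2 libraries in 10 bins of the locus and 3 of the flanks.

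**Figure D2:**
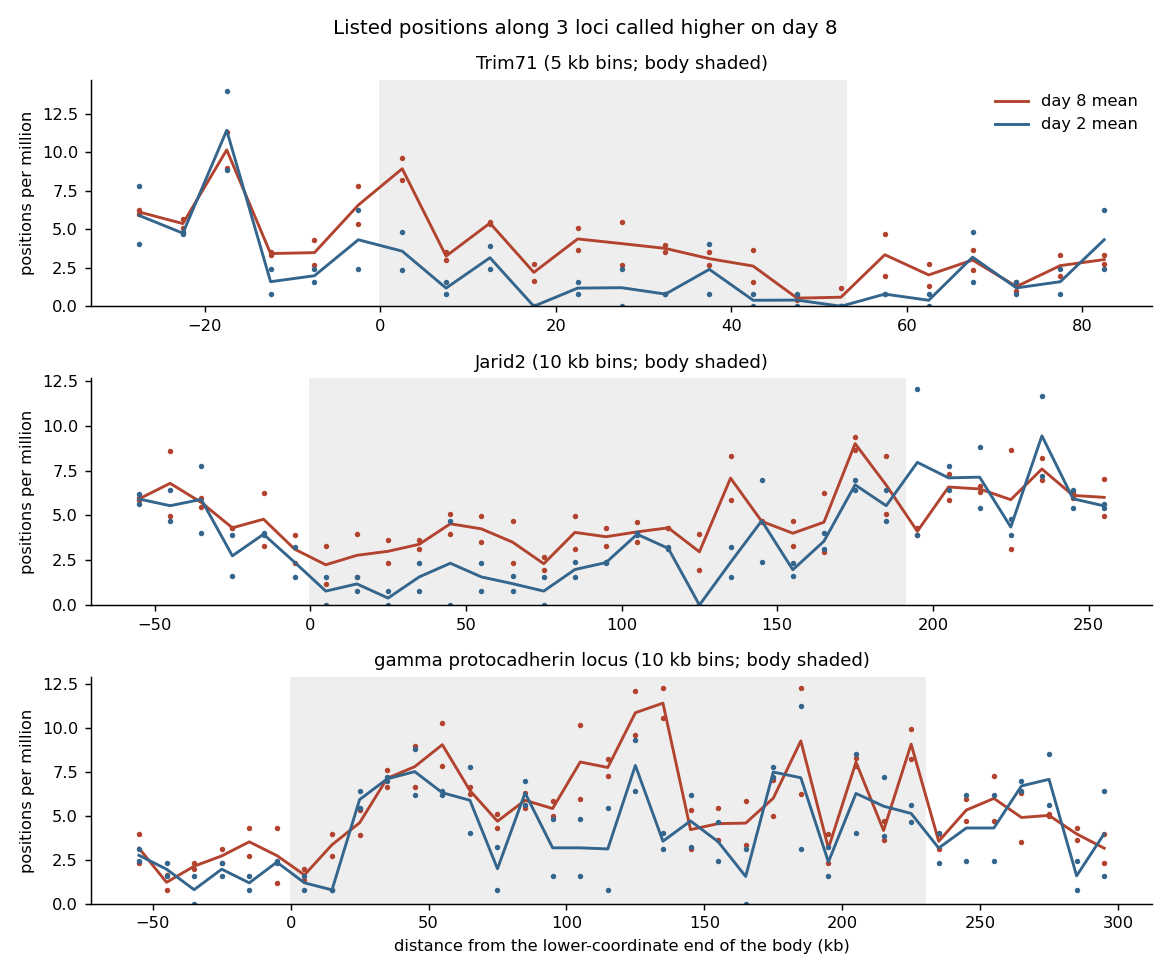
The panels show ppm in bins along Trim71 (5 kb), Jarid2 and the gamma protocadherin locus (10 kb), against the distance in kb from the lower-coordinate end of the body, which is shaded; lines are means of 2 libraries and dots single libraries, in red for day 8 and blue for day 2. The day 8 mean lies above the day 2 mean in 11 of 11, 18 of 19 and 18 of 23 bins of the 3 bodies. Both day 8 libraries lie above both day 2 libraries in 8 of 11, 13 of 19 and 10 of 23. The loci were called in these same libraries, so the bins are a description.

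The other higher loci held 1 called gene each. Lmnb1, which encodes the nuclear lamina protein lamin B1, had 38.5 and 40.7 ppm on day 8, against 23.3 and 21 on day 2 (log2 change 0.81 ± 0.20, SE; edgeR adjusted p = 0.0432). Pptc7, a mitochondrial protein phosphatase, had 45.5 and 42.6 on day 8, against 22.5 and 28 on day 2 (log2 change 0.78, edgeR adjusted p = 0.0334). Pias2, a SUMO ligase, had 24.6 and 34.0 on day 8, against 12.8 and 13.2 on day 2 (2.17-fold, edgeR adjusted p = 0.0125). As in every called gene, the days did not overlap in these 3.

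Dazap1, an RNA-binding protein, had 29.5 and 28.2 ppm on day 8, against 13.6 and 14.8 on day 2 (log2 change 0.99, edgeR adjusted p = 0.0362). Bicral, a subunit of a BAF chromatin remodelling complex, had 91.6 and 82.6 on day 8, against 47.4 and 69.2 on day 2 (log2 change 0.55, edgeR adjusted p = 0.0190). Clybl, a mitochondrial lyase, had 175 and 191 on day 8, against 135 and 142 on day 2 (log2 change 0.38, edgeR adjusted p = 0.0290). The day 2 libraries of Bicral lay further apart than its day 8 libraries.

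Cdt1, Zic4 and Pmel were called below the median abundance. Cdt1, a licensing factor that loads the replicative helicase at origins, had 22 and 22 listed positions on day 8, against 1 and 1 on day 2. Day 4 had 16 and 18. Its fitted log2 change of 3.20 ± 0.69 (SE; edgeR adjusted p = 0.00981) rests on 1 position in each day 2 library and so depends on the prior count, and it was not tested at equal numbers of positions. Its promoter window of 32 CpGs had none listed on any of the 3 days. Zic4, a zinc finger transcription factor of the developing brain, had 32 and 42 positions on day 8, against 5 and 5 on day 2, and Pmel, a melanosome protein, had 47 and 50 on day 8, against 5 and 12 on day 2.

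**Figure D3:**
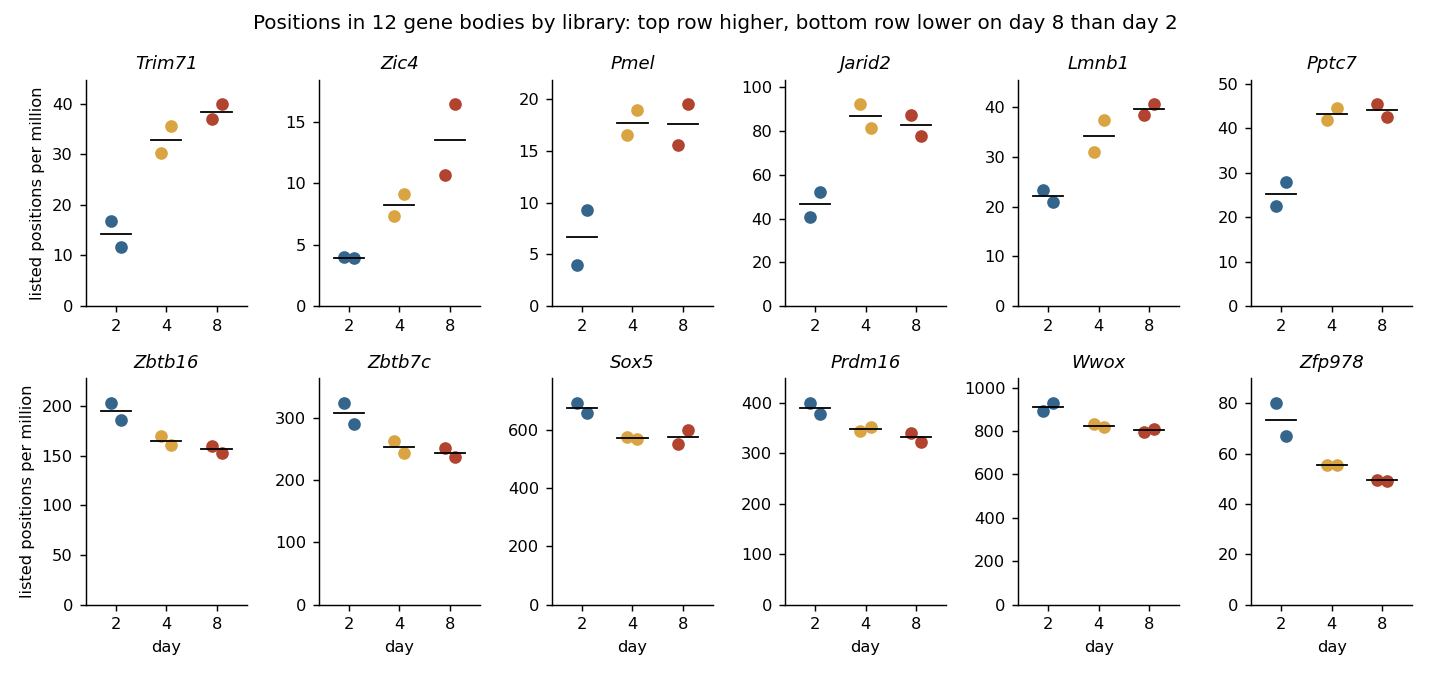
Each panel gives the ppm in 1 gene body (y axis from 0) by day (x axis), with a point per library and a line at the mean of 2; the top row has 6 genes called higher and the bottom row 6 called lower on day 8 than on day 2. In all 12 the day 4 points lie on the day 8 side of both day 2 points. The genes were picked from calls made with these same day 2 libraries, so the place of day 4 is a description and no support for the calls.

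The median length of called genes was above that of the genes tested, but for the higher genes it depends on 1 locus. The median length was 294192.5 bases for the 14 lower genes and 130905 for the 26 higher genes, against 26057 for all genes tested. Of the 26 higher genes, 15 are overlapping bodies of the protocadherin locus, and the others ranged from 5116 (Cdt1) to 231241 bases (Clybl). Of 221 tested genes over 500 kb, 7 were called, against 40 of 19753 (0.203%) over all genes tested. Long genes hold more positions, so smaller changes can be called in them. The standard error was 0.05 for Wwox and 0.23 for the shorter Trim71. The part of this in the lengths of called genes was not tested. Of these 7 called genes over 500 kb, 4 were lower, and the other 3 were the readthrough genes of the protocadherin locus. Zbtb7c, a BTB-domain zinc finger gene, had 251 and 237 ppm on day 8, against 324 and 290 on day 2. Its log2 change was -0.35 ± 0.07 (SE; edgeR adjusted p = 0.00236), and -0.44 at equal numbers of positions (edgeR adjusted p = 0.0188). Without day 2 replicate 1 it was -0.28 (edgeR adjusted p = 0.551).

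Sox5, a SOX-family transcription factor, had 549 and 599 ppm on day 8, against 692 and 658 on day 2 (log2 change -0.26 ± 0.05, SE; edgeR adjusted p = 0.00344). Wwox, an oxidoreductase gene that spans a common fragile site, had 796 and 809 on day 8, against 894 and 931 on day 2 (log2 change -0.21, edgeR adjusted p = 0.0177). Zbtb16, which encodes the transcription factor PLZF, had 160 and 153 on day 8, against 203 and 186 on day 2 (log2 change -0.34, edgeR adjusted p = 0.0461). Here too the days did not overlap, as in every called gene.

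Prdm16, a zinc finger regulator of brown fat and haematopoietic stem cells, had a log2 change of -0.25 (339 and 323 ppm on day 8, against 400 and 377 on day 2). Cacna1c, the pore subunit of an L-type calcium channel, had -0.23 (459 and 452 on day 8, against 531 and 522 on day 2). Prkce and Ptprm, which encode a protein kinase C and a receptor tyrosine phosphatase, had -0.24 and -0.23. The edgeR adjusted p of these 4 lay between 0.0334 and 0.0461. Klhl25, an adaptor of a cullin ubiquitin ligase, was shorter and fell by 0.81 on the log2 scale, with 21.6 and 21.5 ppm on day 8, against 38.5 and 35.8 on day 2 (edgeR adjusted p = 0.0362). The gene 1600014C10Rik fell by 0.77 (edgeR adjusted p = 0.0178). By reads its change was only -0.22, and at equal numbers of positions it was -0.50 (edgeR adjusted p = 0.541). Of its day 2 positions, 71.1% were listed again on day 8, against 36.2% over the genome.

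Zfp978, Zfp982 and Gm13212 lie on the distal part of chromosome 4, among zinc finger genes with near-identical copies, where reads of one copy may be assigned to another. Zfp978 had 49.5 and 49.3 ppm on day 8, against 80.3 and 66.9 on day 2 (log2 change -0.60 ± 0.14, SE; edgeR adjusted p = 0.0174). Its change was -0.91 at equal numbers of positions (edgeR adjusted p = 0.0264) and -0.29 by reads. Zfp982 had 54.4 and 52.0 on day 8, against 78.7 and 76.2 on day 2 (log2 change -0.56, edgeR adjusted p = 0.0223). Gm13212 had 5.31 and 6.26 on day 8, against 16.1 and 13.2 on day 2. Of the 246 tested members of the list of zinc finger genes, these first 2 were called lower and 0 higher, against 0.0709% lower and 0.132% higher of all genes tested.

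Sfi1, a centrin-binding protein gene, had the smallest p of all and is a special case. It had 66.1 and 73.2 ppm on day 8, against 128 and 121 on day 2 (log2 change -0.86 ± 0.11, SE; edgeR adjusted p = 1.68e-10). Its raw numbers of positions differed little, at 199 and 187 on day 8 and 159 and 155 on day 2. Of its day 2 positions, 88% were listed again on day 8, against 36.2% over the genome. When reads were drawn to equal numbers of positions its change was -0.20 (edgeR adjusted p = 0.738), and by reads it was -0.14. When positions were drawn in place of reads it was -0.89 (edgeR adjusted p = 0.00104). The lower value of Sfi1 was thus seen in the share of distinct positions and in neither of the measures that follow the reads.

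Read counts gave few calls. Of 28300 gene bodies tested by reads with edgeR, 1 (0.00353%) was higher, the rRNA-derived AY036118, and 0 were lower. At an unadjusted p under 0.05 there were 916 higher and 877 lower genes, and DESeq2 called 14 higher and 107 lower. Without day 2 replicate 1 edgeR called 1067 genes, and without day 2 replicate 2 it called 1707.

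Of the 22 gene lists, 18 had no called member. Over all genes tested, 0.203% were called and 8.84% had an unadjusted p under 0.05, so few or no calls in a short list is near that share. In the list of DNA methylation and demethylation genes 0 of 24 tested members were called by edgeR, with 4 at an unadjusted p under 0.05 (8.84% of all genes tested) and none called by DESeq2. Dnmt1 itself had 82.0 and 64.6 ppm on day 8, against 66.6 and 62.2 on day 2 (log2 change 0.17, edgeR adjusted p = 0.778). Dnmt3b had 30.9 and 29.3 on day 8, against 32.9 and 26.4 on day 2, and Uhrf1 had 18.9 and 21.1 on day 8, against 19.3 and 17.9 on day 2. In these 3 genes the days overlapped.

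Dnmt3l, the catalytically inactive partner of the de novo enzymes, had 13.9 and 16.4 ppm on day 8, against 8.03 and 9.33 on day 2 (log2 change 0.77, edgeR adjusted p = 0.458). Tet1, which oxidises methylcytosine, had 57.4 and 61.4 on day 8, against 49.0 and 40.4 on day 2 (log2 change 0.38, edgeR adjusted p = 0.405). Dnmt3a had a change of 0.11, Tet2 of -0.15 and Prdm14 of -0.08, and none of these 5 genes passed the test.

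Of the naive pluripotency list 12 of 26 annotated members passed the filter on low counts, and 0 were called by edgeR (4 at an unadjusted p under 0.05, against 8.84% of all genes tested, and none by DESeq2), with a median change of -0.01. Esrrb, an orphan nuclear receptor of the naive state, had 121 and 126 ppm on day 8, against 132 and 118 on day 2. Nanog had 10 and 9 listed positions on day 8, against 2 and 4 on day 2, Klf4 had 4 and 6 on day 8, against 1 and 3 on day 2, and Zfp42 had 13 and 6 on day 8, against 4 and 6 on day 2. Pou5f1 had 5 and 1 on day 8 and 0 and 0 on day 2. These 4 short genes and Otx2 did not pass the filter, so no change is given.

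Of the formative and primed list 12 of 24 members passed the filter and 0 were called by edgeR (1 at an unadjusted p under 0.05, and none by DESeq2). Etv5, an ETS factor induced by FGF signalling, had 48.5 and 45.4 ppm on day 8, against 30.5 and 28.8 on day 2. Its days did not overlap, but its log2 change of 0.64 ± 0.18 (SE) had an edgeR adjusted p of 0.116. Fgf5, a marker of the formative state, had 11.6 and 10.6 on day 8, against 15.3 and 7 on day 2. Jarid2 was the 1 called gene among 25 tested Polycomb members, whose median was 0.06.

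The long cell adhesion genes, which include Csmd3, Dlg2 and Tenm3, had 0 of 39 members called by edgeR, 12 at an unadjusted p under 0.05 (8.84% of all genes tested) and none called by DESeq2. Their median change was 0.03. Csmd3 had 159 and 186 ppm on day 8, against 140 and 133 on day 2 (log2 change 0.31, edgeR adjusted p = 0.173). Tenm3 ran the other way, at 706 and 709 on day 8, against 768 and 775 on day 2 (log2 change -0.15, edgeR adjusted p = 0.264). Cacna1c, above, was the 1 called member among 31 synaptic receptors and channels. Cdkn1a, a cell-cycle inhibitor induced by p53, had a change of 0.62, and Neat1, the RNA of nuclear paraspeckles, one of 0.59, and neither passed the test.

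Windows of 100 kb do not depend on gene models. Of 23649 tested with edgeR on distinct positions, 22 (0.093%) were higher and 8 (0.0338%) were lower on day 8. At equal numbers of positions 17 windows were called, 12 of them among the 22 higher and 0 among the 8 lower. DESeq2 called 0, with 221 at an unadjusted p under 0.05, and edgeR called 1 window without day 2 replicate 1 and 13 without day 2 replicate 2. Of the 22 higher windows 17 held the midpoint of a protein-coding gene, and of the 8 lower windows 6 did, against 44.0% of the windows tested.

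The window of Trim71 (chr9:114500001-114600000) had 64.7 and 73.2 ppm on day 8, against 34.5 and 32.7 on day 2. Its log2 change was 1.02 ± 0.16 (SE; edgeR adjusted p = 5e-06) and its change by reads was 1.14 (edgeR adjusted p = 0.0167). It was called without each of the 4 libraries in turn, with an edgeR adjusted p of at most 0.0167. DESeq2 gave it an adjusted p of 0.597. By reads its call was lost without day 8 replicate 1 (edgeR adjusted p = 0.227) and without day 8 replicate 2 (edgeR adjusted p = 1.00).

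A window within Jmjd1c, which encodes a histone demethylase of the JMJD1 family (chr10:67100001-67200000), had 47.5 and 48.5 ppm on day 8, against 23.3 and 24.9 on day 2 (log2 change 0.98, edgeR adjusted p = 0.00122). The window of Rarg, a retinoic acid receptor, and Espl1, the protease separase (chr15:102200001-102300000), had 71.7 and 71.6 on day 8, against 34.5 and 42.8 on day 2 (log2 change 0.88, edgeR adjusted p = 5.46e-05). The window of the anti-apoptotic gene Mcl1 (chr3:95600001-95700000) had 57.4 and 63.4 on day 8, against 28.9 and 37.3 on day 2 (log2 change 0.85, edgeR adjusted p = 0.00124). All 3 were also called at equal numbers of positions.

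The window of Ywhag and Zp3 (chr5:135900001-136000000) had 84.3 and 88.8 ppm on day 8, against 49.0 and 47.4 on day 2 (log2 change 0.83, edgeR adjusted p = 4.83e-05). A window across Hoxc genes (chr15:102900001-103000000), named after its values were seen, had 52.1 and 52.8 on day 8, against 19.3 and 42.0 on day 2. Its log2 change was 0.76 (edgeR adjusted p = 0.0199), and its day 2 libraries differed from each other by more than its second day 2 library did from day 8. Among 8 tested Hox gene bodies 0 were called by edgeR, 1 had an unadjusted p under 0.05, and DESeq2 called none.

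The lower windows included that of Sfi1 and a window of chromosome 2 without a protein-coding gene (chr2:98600001-98700000). That window had 31.5 and 35.2 ppm on day 8, against 60.2 and 55.2 on day 2 (log2 change -0.80, edgeR adjusted p = 0.00219). Of its day 2 positions 84.7% were listed again on day 8, and at equal numbers of positions its change was 0.05 (edgeR adjusted p = 0.964). A window that overlaps Mcph1 and Agpat5 (chr8:18800001-18900000) had 48.1 and 47.7 on day 8, against 76.3 and 70.8 on day 2 (log2 change -0.62, edgeR adjusted p = 0.0140). It kept a change of -0.68 at equal numbers of positions (edgeR adjusted p = 0.0714).

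By reads, 2 of 23770 windows (0.00841%) were higher with edgeR and 0 were lower, while 937 higher and 937 lower had an unadjusted p under 0.05 and DESeq2 called 4 higher and 0 lower. One was the Trim71 window. The other, named after its values were seen, holds a copy of the ribosomal RNA gene repeat in the assembly (chr17:39800001-39900000, with Rn18s-rs5 and AY036118), onto which reads of the many repeat copies can be assigned. Its log2 change by reads was 2.43 (edgeR adjusted p = 1.51e-08), and it was called by reads without each library in turn. By positions it was 0.55 (edgeR adjusted p = 0.00789), and 0.39 without day 2 replicate 1 (edgeR adjusted p = 0.757). At equal numbers of positions it was 1.24 (edgeR adjusted p = 1.38e-16).

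Nearly all of that signal lay in 1 stretch of 10 kb (chr17:39840001-39850000). It held 10283 and 6764 reads on day 8, against 958 and 1371 on day 2, and 3195 and 3613 on day 4. As a share that was 829 and 653 reads per 1000000 reads on day 8, against 96.9 and 156 on day 2. The distinct positions there were 532 and 506 on day 8, against 132 and 180 on day 2, a 1.54-fold higher share of all positions. Reads per position in the stretch averaged 16.3 ± 4.22 on day 8 and 7.44 ± 0.254 on day 2 (SD, n = 2 each), the opposite order to the whole genome. The 5 wild-type libraries together held 385 reads at 159 positions there, or 2486 to 7693 reads per 1000000 reads in single libraries. The part of untagged background in the day 8 value was not tested.

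Counted by gene midpoints, the tags also shifted a little toward windows with many genes. Windows with 7 or more midpoints of protein-coding genes held 1.48% and 1.40% of positions on day 8, against 1.29% and 1.29% on day 2, and windows with 4 to 6 held 6.53% and 6.28% on day 8, against 5.89% and 6% on day 2. Windows with none held 43.7% and 44.7% on day 8, against 45.4% and 44.9% on day 2. The log2 ratios were 0.16, 0.11 and -0.03. The days did not overlap in these classes, each with an exact permutation p of 0.333, the smallest possible, and an adjusted p of 0.417 within the family. The classes by gene midpoints were added after the data had been seen. In the planned classes by percent of bases in protein-coding genes, the days overlapped at both extremes. Windows with 0% held 23.2% and 24.0% on day 8, against 24.3% and 23.9% on day 2. Those over 75% held 34.9% and 34.6% on day 8, against 34.5% and 34.7% on day 2. At equal numbers of positions neither extreme overlapped. For the classes by midpoints, the other measures were close to the first. The ratios were 0.17, 0.12 and -0.03 by reads, and 0.17, 0.12 and -0.04 at equal numbers of positions.

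**Figure D4:**
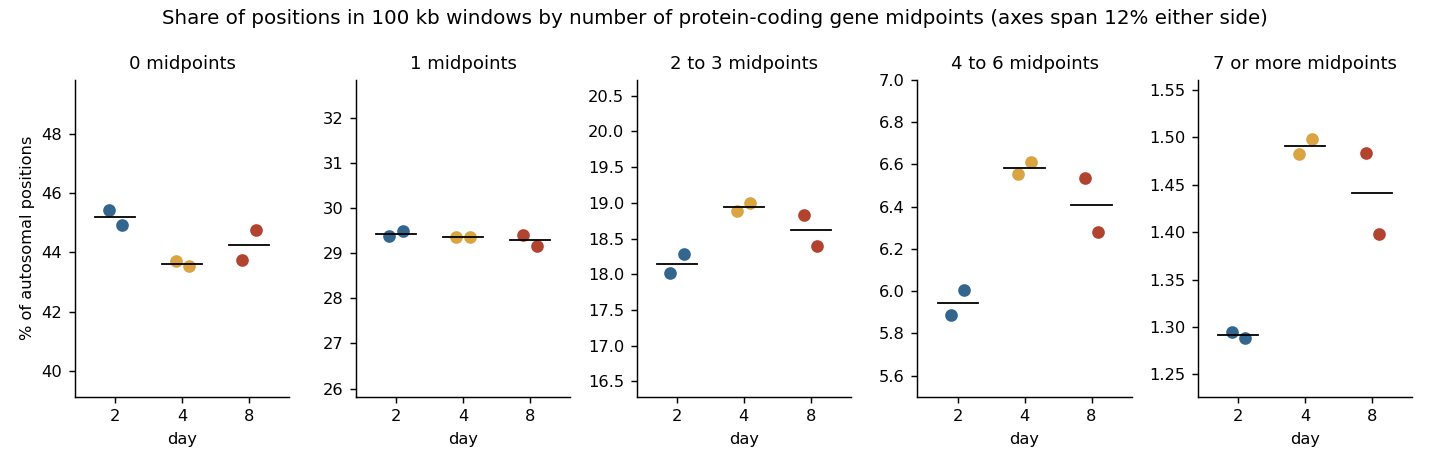
Each panel is a class of 100 kb windows by the number of protein-coding gene midpoints they hold, with the share of autosomal positions (%) on a y axis that spans 12% either side of its middle and does not start at 0, and the day on the x axis; points are libraries and lines means of 2. In windows with 7 or more midpoints the means were 1.29%, 1.49% and 1.44% on days 2, 4 and 8.

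Day 4 had the larger share, at a mean of 1.49% in windows with 7 or more midpoints, so the difference from day 2 was already present then. Short genes moved the same way, as genes under 10 kb held 2.06% ± 0.0919 of positions on day 8 and 1.87% ± 0.0159 on day 2 (SD, n = 2 each). Positions within 1 kb of a gene end made up 6.47% ± 0.122 on day 8 and 6.21% ± 0.00216 on day 2 (SD, n = 2 each). Genes of 200 to 500 kb held 10.9% on day 8 and 11.1% on day 2. The longest genes, over 500 kb, overlapped between the days, at 5.87% and 6.10% on day 8 and 6.03% and 5.98% on day 2. Genes of 50 to 200 kb overlapped too, at 20.7% and 20.3% on day 8 and 20.3% and 20.4% on day 2. The exact permutation test of these shares cannot go below 0.333. Chromosomes as a whole moved less, with log2 ratios between -0.03 and 0.03 over the 19 autosomes, 8 of which did not overlap between the days.

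The promoter windows show where the label was sparse on both days. Every listed position in them was the C of a reference CpG. Of the 349578 CpGs in 31363 windows, 3.31% and 2.75% were listed on day 8, against 1.29% and 1.32% on day 2. As a share of all positions, promoters held 1.05-fold more on day 8 (exact permutation p = 0.333, the smallest possible). In windows with 3 to 5 CpGs, 16.4% and 14.4% of CpGs were listed on day 8, against 6.99% and 6.93% on day 2. In windows with 21 to 30 CpGs it was 0.290% and 0.244% on day 8, against 0.105% and 0.0997% on day 2. At equal numbers of positions the days were far closer. The means were then 7.10% on day 8 and 6.87% on day 2 for 3 to 5 CpGs. For 11 to 20 CpGs they were 0.888% on day 8 and 0.804% on day 2, and for 21 to 30 they were 0.102% and 0.0997%. The fall with CpG number was far larger than the difference between days. Of the 7954 windows with 21 or more CpGs, 94.3% had no listed position on day 8, against 97.1% on day 2. That last comparison was not made at equal numbers of positions.

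**Figure D5:**
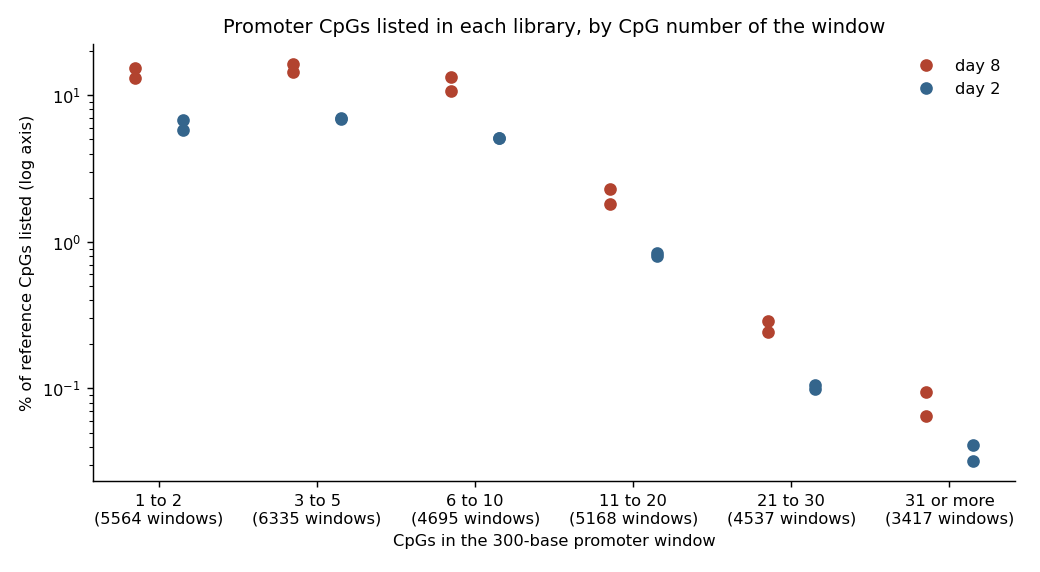
The percent of reference CpGs listed in each library (log axis) is plotted against the number of CpGs in the 300-base promoter window, with the number of windows in brackets; red points are the 2 day 8 libraries and blue points the 2 day 2 libraries. Both days fall from 15.4% and 6.96% in windows of 3 to 5 CpGs to 0.0794% and 0.0365% in windows of 31 or more (means of day 8 and of day 2).

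Gene lists differed in the share of promoter CpGs listed, counted over windows of any CpG number. The promoters of the germline list, genes whose promoter methylation is known in embryonic stem cells, had 9.84% and 7.74% of 620 CpGs listed on day 8, against 3.39% and 2.90% on day 2. Over all promoter windows it was 3.31% and 2.75% on day 8. As a share of all positions, the germline promoters held 20.3 and 18.8 ppm on day 8, against 16.9 and 14.0 on day 2. A position was listed on day 8 in 26 of the 33 germline windows. That compares with 21 of 63 windows of the imprinted list and 2 of 37 of the housekeeping and ribosomal list, and the share over all windows is not given here. Housekeeping and ribosomal promoters had 3 and 2 of 717 CpGs listed on day 8 and 0 and 0 on day 2. The imprinted list had 2.21% and 1.79% of 949 CpGs listed on day 8, against 1.58% and 0.632% on day 2. Its day 8 values were close to the 2.30% and 1.81% of all windows with 11 to 20 CpGs. As a share of all positions the imprinted promoters overlapped, at 6.97 and 6.65 ppm on day 8 and 12 and 4.67 on day 2.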

How the data were processed

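Per the labels' protocols, azide-tagged DNA was joined to a biotinylated oligonucleotide, enriched and primed from it, and read on an Ion Proton instrument. BWA 0.7.17-r1188, SAMtools 1.12 and cutadapt 4.4 are named with build mm10 in the submitters' processing notes, with settings not given in the sources used. The authors deposited, per the file headers, 1 table per library with the read count (coverage) at each listed position, not normalized. No molecular identifiers were used, so several reads of a position may be copies of 1 fragment, and distinct positions were the main measure. The 4 libraries had 8787079 to 12399291 autosomal reads.

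Positions and reads were summed over 33073 autosomal RefSeq gene bodies and 24618 windows of 100 kb, without strand, and 38.6% of genes overlap another. The day 8 and day 2 libraries were fitted with edgeR 4.0.16 (R 4.3.3; filterByExpr, TMM, glmQLFit, glmQLFTest). Standard errors are the log2 change over the square root of F. The common coefficient of variation was 0.0157 for positions and 0.345 for reads per gene. For positions the fit pooled the spread almost wholly over all genes, and likewise over all windows (425 prior degrees of freedom). A gene or window whose own libraries lay far apart could thus still be called. On counts simulated for the 19753 genes, changes were placed only in genes at or above the median abundance. Among those, 38% of 1.5-fold and 83% of 2-fold changes were recovered, and 6 unchanged genes were called. Genes were drawn independently at the fitted dispersion, so the shared positions of overlapping genes were not simulated, and recovery below the median abundance is not known.

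Genes were named by size and p among calls at or above the median abundance with groups that do not overlap, with 2 called members at most from each list, and a fixed set of genes. The other called genes named, such as Cdt1, Zic4, Pmel, Gm13212, Bicral, Clybl, Prkce, Ptprm and 1600014C10Rik, were chosen after their values were seen. The members, lists and rules were chosen with earlier results of these data known. Alternatives were library totals, no filter, DESeq2 1.42.0, more libraries in the fit, a replicate block, each library left out, equal numbers of positions, positions with at least 2 reads, positions absent from wild-type libraries, and genes that overlap no other. Pairing by replicate number was checked: the replicate differences of day 8 and day 2 correlated at -0.03 over 19143 windows, so the numbers were not used to pair them. Sums and shares used scipy 1.17.1, pandas 2.3.3 and numpy 2.4.6 under Python 3.11.15.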

Additional observations from a re-analysis of the deposited data

How the results depend on the processing

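By positions 40 genes were called. The number called, not all of them among the 40, was 1 with DESeq2, 2 with random positions and 4 with random reads at equal numbers of positions, 11 with positions of at least 2 reads (10 among the 40), 3 among genes that overlap no other, and 2 to 39 with 1 library left out (39 without day 8 replicate 1, with 25 among the 40). The replicate block gave 45, all 40 among them. By positions 30 windows were called, and the number called was 0 with DESeq2 (221 at an unadjusted p under 0.05), 16 and 17 at equal numbers of positions, 17 without positions listed in wild-type libraries and 1 to 25 with 1 library left out, while the replicate block gave 28. By reads, the 1 called gene became 121 with DESeq2, 7 with the replicate block and 1 to 1707 with 1 library left out. The 2 windows called by reads became 4 with DESeq2, 4 with 6 libraries, 1 with 8 libraries, 9 with the replicate block and 1 to 878 with 1 library left out. Of the 14 genome classes by annotation, by percent of bases in protein-coding genes and by gene length (the classes by gene midpoints left out), 8 did not overlap between the days, 13 at equal numbers of positions and 8 to 14 with 1 library left out, and for chromosomes 8 became 10 to 16. The lowest correlation between the days less the lower within-day value was -0.01 at equal numbers of positions and 0.00177 with all positions. The cause of these shifts was not tested. With 1 library left out, the lone library was assumed to vary like the other day's pair. The fold of positions lay between 2.02 and 2.38 with 1 library left out. No called gene changed sign under any alternative in which it was tested, while the lower window of chromosome 2 (chr2:98600001-98700000) turned to 0.0508 (log2) when reads were drawn to equal numbers of positions. Genes with few listed positions did not pass the filter on low counts, so no change is given for them.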
